A study of Mus musculus with 4 samples.

Results

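The replication-dependent histone genes encode the bulk of the core and linker histones that package new DNA. They were taken as every gene of the count matrix whose symbol starts with Hist1h, Hist2h, Hist3h or Hist4h, which gave 67 of 31053 genes. Of these, 6 encode linker histone H1, 18 encode H2A, 18 encode H2B, 12 encode H3 and 13 encode H4. On the mm10 (GRCm38) genome, 54 lie on chromosome 13, 10 on chromosome 3, 2 on chromosome 11 and 1 on chromosome 6. The comparison asked how their mRNA levels differed between cycling and non-cycling cells of chondrocyte-like, osteoblast-like, erythroid-like and leukocyte-like type.

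The cells came from the proximal and distal tibia of a single male mouse at postnatal day 6, with the cells of 2 tibiae pooled into 1 droplet library that was sequenced as 4 entries. The mouse carried Col10a1Cre, a Cre driven by the promoter of the hypertrophic chondrocyte collagen gene, together with Rosa26-Tdtomato, Irx3 +/Δ and Irx5 +/-. It was the heterozygous control of the study, so all cells come from an animal of this genotype, and no fully wild-type animal was compared. The paper writes the Irx3 allele as +/ΔHC, its mark for deletion by Col10a1Cre in the hypertrophic chondrocyte lineage. The deleted allele may therefore not be present in every cell type compared. With 1 library there was no replicate, so groups of cells are compared by size only, with neither p-values nor standard errors.

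The matrix held 158281984 UMIs (tags that count captured transcripts once each) in 14181 barcodes, and 8256 cells with 2623 to 85279 UMIs each passed the limits on genes and mitochondrial RNA. They formed 30 clusters, of which 4 clusters with 357 cells were left unnamed. The 4 types together held 6579 cells. Col2a1, the cartilage collagen gene, stood at 44927 CPM (UMIs of a gene per 1000000 UMIs) in chondrocyte-like cells and at most at 1388 CPM in the other types, and Col1a1, the bone collagen gene, stood at 32464 CPM in osteoblast-like cells. Sp7 stood at 74.3 CPM in osteoblast-like cells, Slc4a1 at 1202 CPM in erythroid-like cells and Ptprc at 187 CPM in leukocyte-like cells, each above the other types. Levels are taken over the summed UMIs of all cells of a group, with 95% exact Poisson intervals that cover counting error only.

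Histone synthesis is coupled to DNA replication. Transcription of these genes and processing of their mRNAs rise in S phase, and the mRNAs are degraded when replication ends. Their mRNAs normally end just past a conserved stem-loop that binds the stem-loop binding protein Slbp, and they carry no poly(A) tail. Some of the genes can also give longer, polyadenylated mRNAs, which are known from cells that have left the cycle. The droplet protocol of this kind primes on poly(A), so the values count what such priming captured, and not the whole histone mRNA pool.

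The letters of the stem-loop, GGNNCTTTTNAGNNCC, were looked for on the transcript strand of the annotated transcripts (GENCODE M21, GRCm38). They occurred in 44 of 67 histone genes and in 28 of 21834 other protein-coding genes (0.128%). In 22 genes the annotated transcript ended under 100 bases past the stem-loop (short end), in 22 it went on for 100 bases or more (extended end), and in 23 no annotated transcript held the letters. The letters AATAAA, the canonical poly(A) signal, stood in the last 50 bases of 9 of the 22 extended and 0 of the 22 short transcripts. The sites below are shown because their genes behaved differently although the stem-loop is nearly the same. The stem-loop is in capitals, read 5′ to 3′, with up to 5 bases on either side.
Hist1h2ap: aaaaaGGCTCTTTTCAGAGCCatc
Hist1h3c: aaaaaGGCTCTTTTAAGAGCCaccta
Hist1h2ae: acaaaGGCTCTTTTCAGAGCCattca
Hist1h4i: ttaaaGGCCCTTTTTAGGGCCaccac
Hist1h1c: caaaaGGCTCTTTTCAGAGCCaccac
Hist1h2ac: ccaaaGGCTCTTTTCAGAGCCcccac
Hist4h4: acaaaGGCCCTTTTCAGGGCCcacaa

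The site of Hist1h2ap (chr13:21833026-21833049, minus strand) has 3 annotated bases after it, and that of Hist1h3c (chr13:23745042-23745067, minus strand) has 74. The transcript goes on for 151 bases in Hist1h2ae (chr13:23570663-23570688, minus strand), 330 in Hist1h4i (chr13:22040961-22040986, minus strand) and 840 in Hist1h1c (chr13:23739507-23739532, plus strand). It goes on for 2010 bases in Hist1h2ac (chr13:23683472-23683497, minus strand) and 2445 in Hist4h4 (chr6:136803993-136804018, minus strand). All 7 sites lie past the annotated coding sequence, in the 3′ UTR. Hist1h2bc (chr13:23684199-23692908, plus strand) is annotated with 2 exons and without the stem-loop letters, and so falls in neither of those end classes.

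Cells were called cycling from genes other than the replication-dependent histone genes, though Cenpa, the centromeric H3, was among the G2/M genes. Each cell was thinned to 5000 UMIs, and the UMIs of 36 S phase genes and 43 G2/M genes were summed. A cell above 5.48 UMIs of the S genes or 7.49 UMIs of the G2/M genes counted as cycling, and the 2 sums set 3 groups, S only, S and G2/M, and G2/M only. By this rule 303 of 1950 chondrocyte-like cells were cycling (15.5%, exact Clopper-Pearson interval 13.96 to 17.2%), as were 364 of 1300 osteoblast-like cells (28%, 25.6 to 30.5%), 615 of 618 erythroid-like cells (99.5%) and 1937 of 2455 leukocyte-like cells (78.9%, 77.2 to 80.5%). The call changed with cuts 1.5 times higher or lower in 187 chondrocyte-like, 234 osteoblast-like and 295 leukocyte-like cells. A further 226 leukocyte-like cells were too shallow to be called.

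In the 8256 cells, 64 of the 67 genes had a UMI and 53 had at least 100. Hist2h2aa2, Hist1h2ba and Hist1h2aa had none. The histone genes took 133713 UMIs, or 974 CPM, and the 5 leading genes (Hist1h2bc, Hist1h1c, Hist1h2ap, Hist1h2ae and Hist1h1b) held 60.7% of them. Many of these genes are near copies. In 25 genes under 50% of the 100-base windows were unique among annotated transcripts, including Hist1h2ap with 7.83%, so the division of reads between such copies is uncertain. Hist2h2aa2 had 0% unique windows, so its lack of UMIs cannot be read as a lack of expression. Hist1h2be also overlaps Hist1h1e on the same strand.

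The summed histone level was higher in cycling cells of every type, by different amounts. In leukocyte-like cells it was 144 CPM in non-cycling cells (133 to 156) and 1263 CPM in cycling cells (1250.2 to 1276), 8.78-fold higher. In osteoblast-like cells it was 339.8 CPM (330.0 to 349.9) and 986 CPM (962 to 1010), 2.90-fold higher. In chondrocyte-like cells it was 939 CPM (929 to 949) and 1257 CPM (1233 to 1281), 1.34-fold higher. The cycling levels of these 3 types were of similar size, whereas the non-cycling level of chondrocyte-like cells was 2.76-fold that of osteoblast-like and 6.53-fold that of leukocyte-like cells. Erythroid-like cells had the highest level, 2136 CPM in cycling cells, against 559 CPM (331 to 883) in only 3 non-cycling cells, of which 2 were marked as doublets. The size of the difference rested much on Hist1h2bc and Hist1h1c. Without these 2 genes the sum was 712 against 265 CPM in chondrocyte-like, 706 against 105 CPM in osteoblast-like and 1123 against 80.8 CPM in leukocyte-like cells, or 2.68-fold, 6.70-fold and 13.9-fold higher.

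**Figure D1:**
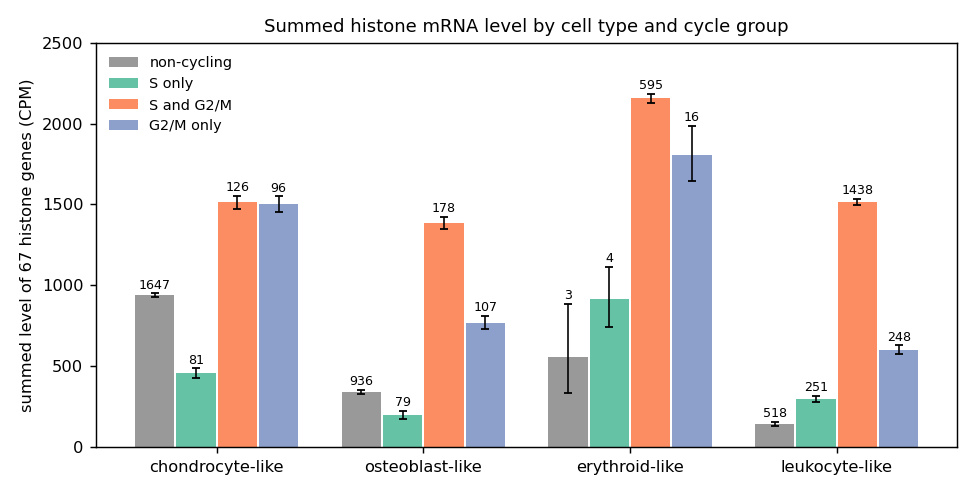
Summed level of the 67 histone genes (CPM, bars, with exact Poisson intervals of counting error) in non-cycling, S only, S and G2/M, and G2/M only cells of the 4 types, with the number of cells above each bar. Cells with both S and G2/M transcripts reached 1512, 1384, 2155 and 1515 CPM, and the grey bar of non-cycling chondrocyte-like cells, 939 CPM, stood above those of osteoblast-like and leukocyte-like cells.

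Within cycling cells the level was lowest in the S only group of every type, at 455 CPM in chondrocyte-like, 197 CPM in osteoblast-like, 913 CPM in erythroid-like (4 cells) and 297 CPM in leukocyte-like cells. In chondrocyte-like and osteoblast-like cells this was below the non-cycling level. The S only group was not the richest in S phase transcripts. The S genes summed to 2008 CPM in it and 2813 CPM in the S and G2/M group of chondrocyte-like cells. These sums were 1932 and 2842 CPM in osteoblast-like and 2718 and 3785 CPM in leukocyte-like cells. The S and G2/M group had the highest histone level in every type. In chondrocyte-like cells its interval (1474 to 1551 CPM) overlapped that of the G2/M only group (1452 to 1549 CPM). The G2/M only group stood at 1500.03 CPM in chondrocyte-like, 769 CPM in osteoblast-like and 601 CPM in leukocyte-like cells, and was 3.30-fold, 3.91-fold and 2.02-fold the S only group. The spread between cells was wide. In non-cycling chondrocyte-like cells the middle 50% of cells ran from 295 to 1362 CPM around a median of 716 CPM, and in cycling ones from 439.8 to 1867 CPM around 1077 CPM. In non-cycling leukocyte-like cells it ran from 0 to 233 CPM.

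Single genes were called where they differed at least 2-fold with at least 20 UMIs over both groups. In chondrocyte-like cells 30 of the 44 histone genes with enough UMIs were higher in cycling cells, where 9.52% of all genes were, and 1, Hist1h1t, was lower, where 4.08% of all genes were. In osteoblast-like cells 38 of 45 were higher against 8.87% of all genes, and 2, Hist2h3c1 and Hist2h3c2, were lower against 2.48%. In leukocyte-like cells 56 of 58 were higher against 18.4% of all genes, and none was lower against 14.9%. The 2 that did not reach 2-fold there were Hist3h2a and Hist4h4, at 1.79-fold and 1.93-fold. In erythroid-like cells 49 of 54 were higher and 2, Hist3h2a and Hist1h2bl, lower, but with 3 non-cycling cells 66.1% and 15.9% of all genes passed these limits. The other 23, 22, 13 and 9 genes of each type had fewer than 20 UMIs. The median fold over the genes with enough UMIs was 3.9 in chondrocyte-like, 5.93 in osteoblast-like and 11.6 in leukocyte-like cells, beside 1.04, 1.08 and 1.10 over all genes. In leukocyte-like cells 14 of the 56 had no UMI in non-cycling cells. With these set at the bound that a floor of 3 counts over the group allows, 3 of them fell under 2-fold, which left 53 of 58 higher, and the median was 6.68.

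H2A and H2B, the core histones of the nucleosome's outer dimer, differed in their sums. In chondrocyte-like cells the direction of the H2B sum rested on 1 gene. The summed H2A level there was 324 CPM in cycling and 128 CPM in non-cycling cells, 2.52-fold higher (2.40 to 2.64). H2B was 352 CPM and 444 CPM, 0.793-fold (0.762 to 0.825). In osteoblast-like cells H2A was 8.16-fold and H2B 1.71-fold higher, and in leukocyte-like cells 18.97-fold and 4.04-fold higher. Hist1h2bc made up most of the H2B sum in chondrocyte-like cells. Without it H2B was 42.8 against 20.5 CPM there, 2.09-fold higher (1.84 to 2.37), and 4.97-fold and 9.24-fold higher in the other 2 types. In each type this was still below the H2A fold. Hist1h2ac held 3801 of the 4826 H2A UMIs of non-cycling chondrocyte-like cells, and the H2A sum was not taken without it. Of the 12 H2B genes with enough UMIs in chondrocyte-like cells, 9 were at least 2-fold higher in cycling cells and none was lower by as much. Over all genes there, 9.52% were higher and 4.08% lower. Within the 6 chondrocyte-like clusters the H2B sum was higher in 3 and lower in 3. H3 and H4, which form the central tetramer, were 2.38-fold and 1.65-fold higher in cycling chondrocyte-like cells, 6.12-fold and 3.51-fold in osteoblast-like cells, and 17.8-fold and 5.48-fold in leukocyte-like cells. The linker histones were 1.51-fold, 2.04-fold and 7.77-fold higher in these 3 types.

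The H1 genes differed widely among themselves. Hist1h1b (chr13:21779883-21780625, minus strand) was at 91.2 CPM in cycling and 1.14 CPM in non-cycling chondrocyte-like cells, at 83.5 and 1.36 CPM in osteoblast-like cells, and at 141 and 1.74 CPM in leukocyte-like cells. The log2 ratios were 6.32 (5.87 to 6.80), 5.94 (5.26 to 6.70) and 6.34 (5.30 to 7.66), so the intervals of the 3 types overlapped. Hist1h1a behaved likewise at lower levels, with 11.3 against 0.293 CPM in chondrocyte-like cells. Hist1h1c was at 236 CPM in cycling and 250.2 CPM in non-cycling chondrocyte-like cells, a log2 ratio of -0.085 (-0.16 to -0.01), and at 118 and 115 CPM in osteoblast-like cells, 0.03 (-0.09 to 0.16). Of these 3 types it passed 2-fold in leukocyte-like cells only, with 74.1 against 32.2 CPM. Hist1h1e was at 65.97 and 22.8 CPM in chondrocyte-like, 30.6 and 7.79 CPM in osteoblast-like, and 58.8 and 4.46 CPM in leukocyte-like cells. Hist1h1t, the linker histone known from the testis, had 7 UMIs in cycling and 116 UMIs in non-cycling chondrocyte-like cells, 0.826 against 3.09 CPM.

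Among the H2A genes, Hist1h2ap and Hist1h2ae were high in cycling cells of every type. Hist1h2ap was at 170.2 against 6.84 CPM in chondrocyte-like, 124 against 2.27 CPM in osteoblast-like and 254 against 3.72 CPM in leukocyte-like cells, and at 276 CPM in cycling erythroid-like cells. Hist1h2ae was at 51.6 against 3.91 CPM, 96.7 against 4.31 CPM and 147 against 4.21 CPM in the same order. Hist1h2ac had the opposite direction in chondrocyte-like cells, where it stood at 53.3 CPM (48.5 to 58.5) in cycling and 101 CPM (97.9 to 104) in non-cycling cells, a log2 ratio of -0.92. In osteoblast-like cells it was at 25.1 and 10.7 CPM and in leukocyte-like cells at 17.8 and 3.97 CPM, higher in cycling cells in both. Hist3h2a was at 11.3 and 12.6 CPM in chondrocyte-like and 13.2 and 15.1 CPM in osteoblast-like cells, but was at 20.0026 and 11.2 CPM in leukocyte-like cells, a log2 ratio of 0.84 (0.40 to 1.31).

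Hist1h2bc was the H2B gene with the most UMIs, 28631 in all cells kept. It was at 309 CPM (297 to 321) in cycling and 423 CPM (417 to 430.1) in non-cycling chondrocyte-like cells, a log2 ratio of -0.45. In osteoblast-like cells it was at 162 and 119.5 CPM, a ratio of 0.44, and in leukocyte-like cells at 66.04 and 30.7 CPM, a ratio of 1.10. It alone made up 45.1% of the histone UMIs of non-cycling chondrocyte-like cells, and Hist1h1c another 26.6%. The next H2B genes were lower. Hist1h2be stood at 7.32 and 7.85 CPM in chondrocyte-like cells and 13.3 and 2.23 CPM in leukocyte-like cells, and Hist3h2ba at 1.18 and 0.426 CPM and at 12.1 and 4.21 CPM in these types. Hist1h2bb had 262 UMIs in cycling and none in non-cycling leukocyte-like cells, so it was at least 12.3-fold higher at that floor. The H2A genes Hist1h2ab and Hist1h2af were likewise at least 19.9-fold and 12.1-fold higher there.

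**Figure D2:**
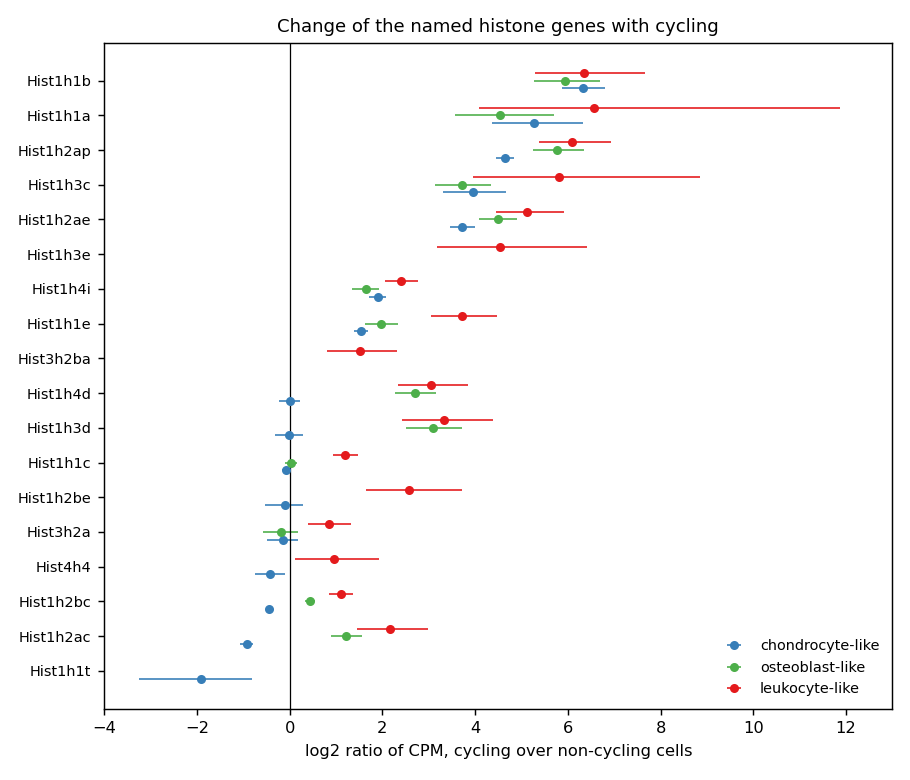
Log2 ratio of CPM in cycling over non-cycling cells for the named histone genes with at least 100 UMIs and a non-cycling UMI in the type (points, with exact 95% intervals of counting error), in chondrocyte-like, osteoblast-like and leukocyte-like cells. Hist1h1b lay near 6 in all 3 types, while Hist1h2bc lay at -0.45, 0.44 and 1.10 and Hist1h2ac at -0.92, 1.23 and 2.17.

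The H3 genes with the most UMIs were Hist1h3d, Hist1h3c and Hist1h3e. Hist1h3d was at 13.5 CPM in both cycling and non-cycling chondrocyte-like cells, but at 19.3 and 2.27 CPM in osteoblast-like and 24.7 and 2.48 CPM in leukocyte-like cells. Hist1h3c was at 10.4 and 0.665 CPM in chondrocyte-like, 27.7 and 2.12 CPM in osteoblast-like, and 27.7 and 0.496 CPM in leukocyte-like cells. Hist1h3e was at 3.54 and 0.506 CPM in chondrocyte-like and 23.0 and 0.992 CPM in leukocyte-like cells. Among H4 genes, Hist1h4i was at 53.3 and 14.3 CPM, 39.1 and 12.6 CPM, and 86.4 and 16.4 CPM in chondrocyte-like, osteoblast-like and leukocyte-like cells. Hist1h4d repeated the pattern of Hist1h3d, with 23.1 and 23.0 CPM in chondrocyte-like cells and 28.5 and 4.39 CPM in osteoblast-like cells. Hist4h4 was at 11.6 and 15.5 CPM in chondrocyte-like cells and 5.75 and 2.98 CPM in leukocyte-like cells.

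The genes were then summed by the annotated end of the transcript. Genes with a short end were at 239 CPM in cycling and 16.1 CPM in non-cycling chondrocyte-like cells, 14.9-fold higher (13.6 to 16.3), against 13.7-fold (11.9 to 15.8) in osteoblast-like and 34.0-fold (25.6 to 46.2) in leukocyte-like cells. Hist1h2ap, whose reads are hard to tell from those of near copies, weighed most in the short-end sum. It held 1442 of 2024 UMIs in cycling chondrocyte-like, 816 of 1561 in osteoblast-like and 7286 of 11617 in leukocyte-like cells. The short-end sum was not taken without it. Genes with an extended end were at 571 and 486 CPM in chondrocyte-like cells, 1.17-fold (1.14 to 1.21), and were 2.26-fold and 5.87-fold higher in the other 2 types. Few genes weighed most in this sum. Hist1h1c held 9403 and Hist1h2ac 3801 of its 18282 UMIs in non-cycling chondrocyte-like cells, and Hist1h1c 1520 of 2562 in non-cycling osteoblast-like cells. The extended-end sum was not taken without them. Genes with no stem-loop in the annotation were 1.02-fold, 2.41-fold and 8.20-fold higher as a sum, most of which was Hist1h2bc in non-cycling cells. Without Hist1h2bc this class was 138 against 13.09 CPM in chondrocyte-like cells, 10.6-fold higher (9.49 to 11.8), and 16.1-fold and 43.9-fold higher in the other 2 types. All 14 short-end genes with enough UMIs were at least 2-fold higher in cycling chondrocyte-like cells, as were 9 of 20 extended-end genes and 7 of 10 without a stem-loop. In osteoblast-like cells these counts were 14 of 14, 14 of 19 and 10 of 12, and in leukocyte-like cells 19 of 19, 19 of 21 and 18 of 18. Over all genes, 9.52% in chondrocyte-like, 8.87% in osteoblast-like and 18.4% in leukocyte-like cells were as much higher. With genes at 0 UMIs in non-cycling leukocyte-like cells set at their bound, the last counts were 18 of 19, 19 of 21 and 16 of 18. Hist1h2ae and Hist1h4i, with an extended end, were over 2-fold higher in cycling cells of each of the 3 types, so the annotated end did not sort every gene.

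**Figure D3:**
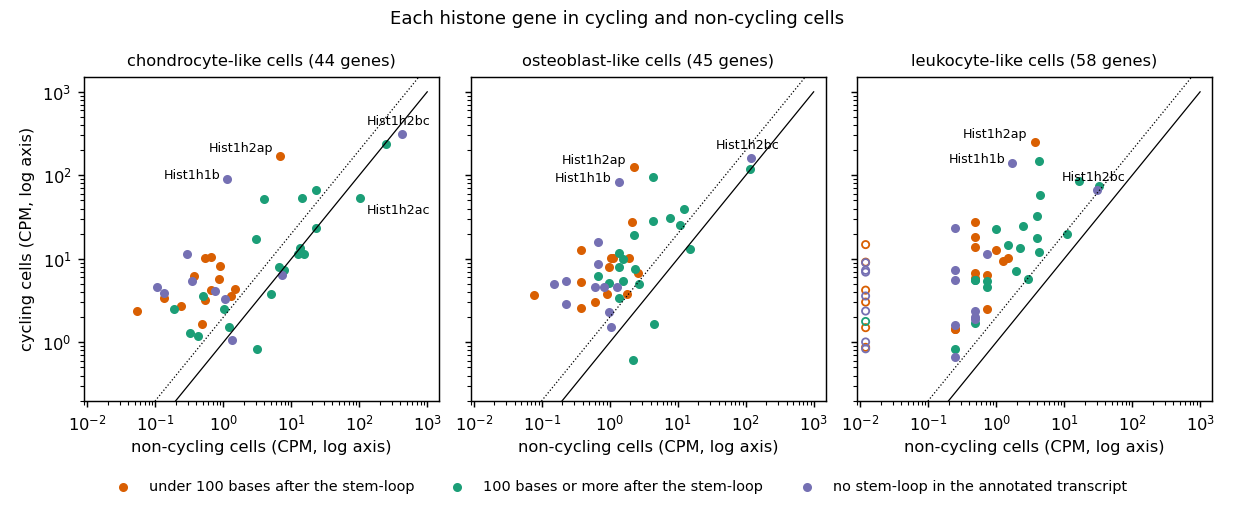
CPM in cycling (y) against non-cycling cells (x) for each histone gene with at least 20 UMIs, on log axes, in 3 types and coloured by the annotated end of the transcript. The solid line marks equal levels and the dotted line 2-fold, and open circles at the left edge mark 14 genes without a UMI in non-cycling leukocyte-like cells. Short-end genes lay above the dotted line in chondrocyte-like and osteoblast-like cells, and Hist1h2bc and Hist1h2ac lay below the solid line in chondrocyte-like cells only.

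Cells were also ordered by their S phase transcripts, without a cut between groups. These bins hold cells whatever their G2/M sum, unlike the S only group. From 0 to 1 S gene UMIs up to 21 to 40 UMIs per 5000, the summed histone level of chondrocyte-like cells went from 990.2 CPM to 1385 CPM, with 946 CPM at 2 to 5 UMIs. Over these bins Hist1h2ap went from 6.78 to 316 CPM and Hist1h2bc from 455 to 94.4 CPM. In osteoblast-like cells the sum went from 399.7 to 1580.4 CPM, Hist1h2ap from 3.14 to 321 CPM and Hist1h2bc from 143 to 98.8 CPM. Hist1h2bc did not fall steadily there, with 149 CPM at 6 to 10 UMIs, and the last bin held 33 cells. Its lower level in the last bin differed from the cycling call, by which it was higher in cycling osteoblast-like cells (log2 ratio 0.44). In leukocyte-like cells the sum went from 149 CPM to 2857 CPM in cells with over 40 UMIs.

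**Figure D4:**
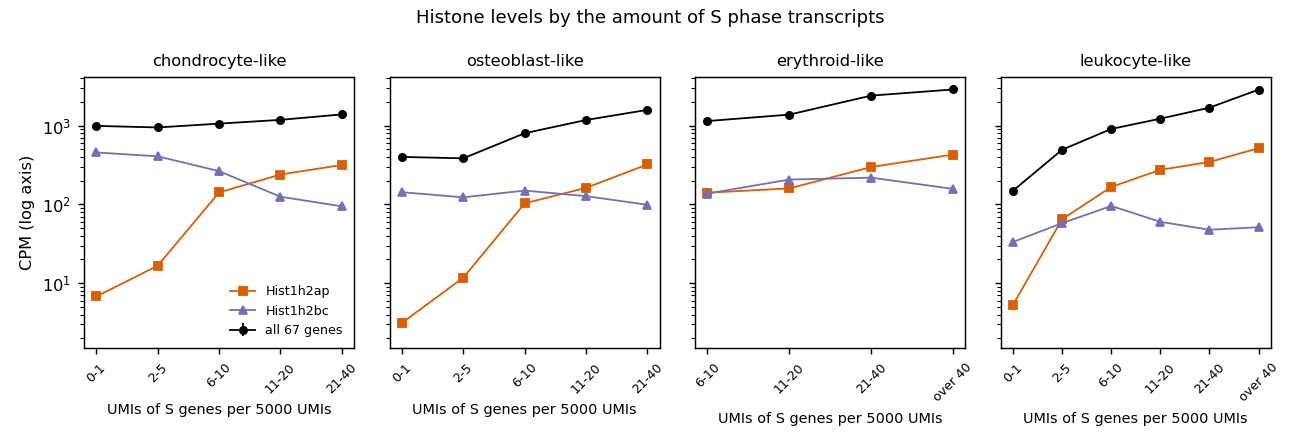
Level (CPM, log axis) of all 67 histone genes, Hist1h2ap and Hist1h2bc in cells binned by the UMIs of 36 S phase genes after thinning to 5000 UMIs, in bins of at least 20 cells, with counting intervals on the sum. Hist1h2ap rose over the bins of every type, and Hist1h2bc was lower in the last bin than in the first in chondrocyte-like and osteoblast-like cells.

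The cycle groups showed where Hist1h2bc was low. In chondrocyte-like cells it was at 137 CPM in the S only group, 190.4 CPM in the S and G2/M group and 646 CPM in the G2/M only group, beside 423 CPM in non-cycling cells. Hist1h1c followed the same order, with 108, 208 and 387 CPM. Hist1h2ap was at 22.8, 307 and 67.5 CPM in these groups. After thinning, 66.97% of non-cycling chondrocyte-like cells had a Hist1h2bc UMI (64.6 to 69.2%) and 50.8% of cycling ones (45.05 to 56.6%), while 3.28% and 37.3% had a Hist1h2ap UMI. Without thinning these shares were 86.8%, 82.8%, 12.3% and 58.4%. In non-cycling leukocyte-like cells the thinned shares were 15.3% for Hist1h2bc and 1.54% for Hist1h2ap, at a median depth of 7130 UMIs against 21406 UMIs in non-cycling chondrocyte-like cells.

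Among non-cycling chondrocyte-like cells the high genes differed by cluster. Clusters were built without any histone gene, and are named here by 2 leading genes. Hist1h2bc was at 582 CPM (563 to 602) in the Sfrp5 and A2m cluster, 454 CPM in the Ppa1 and Prelp cluster, 447 CPM in the Serinc5 and Ihh cluster and 358 CPM in the Krt16 and F3 cluster. It was at 179 CPM (164 to 195) in the Col10a1 and Cdsn cluster, which is led by the collagen of hypertrophic cartilage, and at 150.4 CPM (132 to 171) in the Penk and Tnni2 cluster. Between the Sfrp5 and A2m cluster and the Penk and Tnni2 cluster it differed 3.87-fold (3.38 to 4.45), Hist1h1c 3.99-fold (3.34 to 4.80) and Hist1h2ac 4.54-fold (3.47 to 6.03). Over all 6 clusters Hist1h2ac ran from 172 CPM in the Sfrp5 and A2m cluster to 3.06 CPM in the Col10a1 and Cdsn cluster. Of the osteoblast-like clusters, Hist1h2bc was highest in the Bglap3 and Bglap cluster, led by the osteocalcin genes of mature osteoblasts, at 171 CPM against 51.6 to 80.8 CPM in the other 3.

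**Figure D5:**
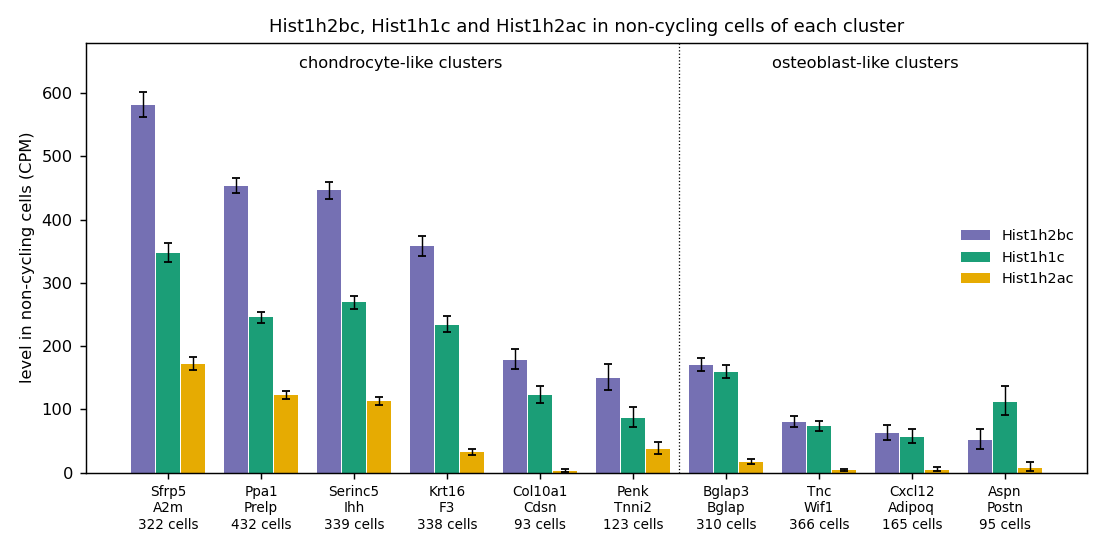
Level (CPM, bars, with exact Poisson intervals of counting error) of Hist1h2bc, Hist1h1c and Hist1h2ac in the non-cycling cells of 6 chondrocyte-like and 4 osteoblast-like clusters, named by 2 leading genes and ordered by Hist1h2bc. Hist1h2bc ran from 582 to 150.4 CPM in the chondrocyte-like clusters, and Hist1h2ac was at 3.06 CPM in the Col10a1 and Cdsn cluster.

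Within clusters the contrast between cycling and non-cycling cells held in every chondrocyte-like cluster for some genes and varied for others. Hist1h2ap, Hist1h2ae, Hist1h1b, Hist1h4i and Hist1h1e were higher in cycling cells, with the interval clear of even, in 6 of 6 chondrocyte-like clusters. By the same measure Hist1h1a and Hist1h3c were higher in 5 and Hist1h3e in 3 of the 6, and they were lower in none. Hist1h2bc was lower in 3 of 6 and higher in none, with ratios from 0.445-fold (259 against 582 CPM, Sfrp5 and A2m cluster) to 1.10-fold (Serinc5 and Ihh cluster). Hist1h2ac was lower in 2 clusters and higher in 2, from 0.280-fold in the Ppa1 and Prelp cluster to 2.94-fold in the Penk and Tnni2 cluster. Hist1h1c was also lower in 2 and higher in 2, from 0.652-fold to 1.89-fold. In the 4 osteoblast-like clusters Hist1h1c was higher in 3 and lower in 1. The whole sum was higher in cycling cells in 5 of the 6 clusters, up to 3.42-fold in the Penk and Tnni2 cluster (1353 against 395 CPM), and lower in the Sfrp5 and A2m cluster, 1223 against 1379 CPM. In all 4 osteoblast-like clusters, and in all 5 leukocyte-like clusters with at least 10 cells in both groups, the sum was higher in cycling cells. Hist1h2bc was higher, with the interval clear of even, in 4 of these osteoblast-like and 3 of these leukocyte-like clusters, and lower in none.

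Hist1h2ac (chr13:23681467-23683948, minus strand) and Hist1h2bc (chr13:23684199-23692908, plus strand) lie head to head, and the interval between their starts is covered by the promoter window of Hist1h2ac. It is shown because, in levels summed over all cells of a type, both genes were lower in cycling than in non-cycling chondrocyte-like cells. In osteoblast-like and leukocyte-like cells both were higher in cycling cells. In erythroid-like cells each had 1 UMI in 3 non-cycling cells, so no direction was read. The window (chr13:23683910-23684209, minus strand, RefSeq promoter table, GRCm38.p6) reads as follows, with the octamer, here on the opposite strand, and TATAAA in capitals.
Hist1h2ac promoter: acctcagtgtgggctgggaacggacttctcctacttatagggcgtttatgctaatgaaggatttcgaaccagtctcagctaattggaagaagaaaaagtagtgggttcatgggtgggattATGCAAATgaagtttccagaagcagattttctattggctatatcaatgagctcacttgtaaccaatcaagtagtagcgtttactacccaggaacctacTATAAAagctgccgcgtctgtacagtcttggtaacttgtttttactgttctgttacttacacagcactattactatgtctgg

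Promoter windows of 300 bases were matched for 62 of the 67 genes, though not for Hist1h2bc. Motifs were searched on both strands. Counts are of genes, each taken to hold a motif if any of its windows did. The octamer letters ATTTGCAT occurred in 7 of 18 H2A and 7 of 16 H2B promoters and in none of the H1, H3 and H4 promoters. They occurred in 1.92% of the 26963 other genes with a window. The windows of Hist1h2aa and Hist1h2ba overlap and hold the same octamer, as do those of Hist1h2ae and Hist1h2bg and of Hist1h2ah and Hist1h2bk. CCAAT occurred in all 6 H1, 18 H2A, 16 H2B and 10 H3 promoters and in 3 of 12 H4 promoters, against 40.96% of the other genes. TATAAA occurred in 35 of 62 histone promoters and 15.6% of the others. These are matches of letters and show no binding.

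Erythroid-like cells were nearly all cycling, so they were described by cluster. The early cluster, led by Car1, had 153 cycling cells with 2.84% haemoglobin UMIs, and the late cluster, led by Slc4a1, had 462 with 30.5%. The summed histone level was 1094 CPM in the early and 3003 CPM in the late cluster, 2.75-fold higher (2.67 to 2.83), and 3.84-fold higher with haemoglobin left out of the total. Hist1h2ae went from 102 to 372 CPM, Hist1h3c from 15.6 to 72.6 CPM and Hist1h2bc from 101 to 282 CPM. The H3 sum was 3.66-fold and the H1 sum 2.03-fold higher in the late cluster. Hist3h2a was at 17.2 and 18.8 CPM and its interval held an even ratio (0.823 to 1.46), but with haemoglobin left out of the total it was 1.53-fold higher (1.15 to 2.04).

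In leukocyte-like cells the cycling clusters also differed. The sum was 2852 CPM in the Igkc and Fcrla cluster, 2067 CPM in the Vpreb1 and Igll1 cluster and 1209 CPM in the Bfsp2 and Igll1 cluster, all of B lineage. It was 849 CPM in the Elane and Prtn3 cluster of early neutrophil lineage and 1153 CPM in the later Ltf and Ngp cluster. Median depth was 17959 UMIs in the Bfsp2 and Igll1 cluster and 7593 UMIs in the Igkc and Fcrla cluster, and its part in the result was not tested.

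Related genes were read beside them. Of 12 replication-independent histone genes, 5 of the 11 with enough UMIs were at least 2-fold higher in cycling cells of chondrocyte-like, osteoblast-like and leukocyte-like type each, and none was lower. H2afz, an H2A variant placed at promoters, was at 1936 and 410.2 CPM in chondrocyte-like cells, and Cenpa, the centromeric H3, at 221 and 13.04 CPM, though Cenpa was also in the G2/M list that set the groups. H3f3b, which encodes H3.3, was at 2663 and 1649 CPM. Over all genes, 9.52%, 8.87% and 18.4% passed this limit in these types. Of 15 genes for histone pre-mRNA processing and decay, 4 were at least 2-fold higher in cycling chondrocyte-like cells. The counts were 3 of 14 in osteoblast-like and 6 of 15 in leukocyte-like cells, the last with Zfp473, which had no UMI in non-cycling cells. Zfp473 stood at 0.941 CPM in cycling leukocyte-like cells, less than 2-fold above the floor of 0.744 CPM. Slbp was at 163 and 54.2 CPM, 139 and 62.0 CPM, and 274 and 88.3 CPM in these types. Of 16 histone chaperones 8, 7 and 12 were at least 2-fold higher, among them Mcm2, which was also in the S list that set the groups. Without Mcm2 the counts were 7, 6 and 11 of 15, and without Cenpa 4 of 10 replication-independent genes were higher in each type. Asf1b was at 29.6 and 1.25 CPM and Chaf1b, a subunit of the assembly factor CAF-1, at 33.6 and 2.10 CPM in chondrocyte-like cells.

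Other measures moved with the cycling call. Marked doublets made up 10.6% of cycling and 1.94% of non-cycling chondrocyte-like cells, 11.8% and 2.24% of osteoblast-like cells, and 4.18% and 2.90% of leukocyte-like cells. Haemoglobin stood at 22128 CPM in cycling and 9249 CPM in non-cycling osteoblast-like cells, and at 771 and 1212 CPM in chondrocyte-like cells. With marked doublets left out the log2 ratios of the sum were 0.44, 1.53 and 3.01 in chondrocyte-like, osteoblast-like and leukocyte-like cells, beside 0.42, 1.54 and 3.13 with them. As a measure of free RNA, Col2a1 in non-cycling cells reached 3.31% of its chondrocyte-like level in osteoblast-like and 2.86% in leukocyte-like cells. Hist1h2bc reached 28.2% and 7.26%, and Hist1h1c 46.0% and 12.9%, above that yardstick in both types. Hist1h2ac reached 10.6% and 3.92%, and the interval of the latter (2.24 to 6.38%) held the yardstick. The part of doublets, haemoglobin and free RNA in these results was not tested beyond these values.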

How the data were processed

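Single-cell RNA-seq of 1 library was analysed as deposited. The authors made UMI counts per gene and barcode with Cell Ranger 3.1.0 on mm10, and the deposited counts are not normalized. Seurat 3 is also named in the submitters' processing notes, but no source used here names the annotation release. A count matrix of exogenous sequences was not used. Of 31053 gene identifiers, 30934 matched GENCODE M21, which gave coordinates.

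Barcodes were kept from 1600 genes upwards, the study's limit, with mitochondrial UMIs up to 10% and ribosomal protein UMIs up to 50%, both chosen here, and had a median of 13958 UMIs. Counts were scaled to 10000 per cell, and 2000 variable genes (no histone, cycle-list or Mmp gene, nor Pth1r), 30 principal components and 20 neighbours entered Leiden clustering at resolution 1. Clusters were named from 11 marker lists by their top 10 genes. The limits of that rule, among them 10 CPM of Sp7 for osteoblast-like clusters, were set after clusters were seen, and names may differ from the study's. Scrublet marked 588 barcodes as doublets, 460 of them among kept cells, and they were kept. Cycle cuts were set by Otsu's method on log2 sums of cells thinned to 5000 UMIs.

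Levels are CPM with 95% exact Poisson intervals, and log2 ratios have exact conditional intervals. A UMI counts a transcript once whatever its length, so no length scaling was applied. Python 3.11.15, scanpy 1.11.5, numpy 2.4.6 and scipy 1.17.1 were used with seed 1, and the scripts were tested on simulated data. Genes named are the 3 with most UMIs per histone class, those with the 3 highest and 3 lowest ratios among genes with at least 100 UMIs and the 3 highest in non-cycling cells of each type (erythroid-like cells excepted, with 3 non-cycling cells), and genes of the related lists. Other named genes were chosen after their values were seen. The genes, lists and rules were chosen with earlier results of these data known. Alternatives tried are given in the closing section.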

Additional observations from a re-analysis of the deposited data

Results flagged for a closer look

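Opposite directions in different cell types were seen for 4 histone genes, in levels summed over all cells of a type. The counting intervals were clear of an even ratio on both sides. The difference between types was not tested, since there was 1 library. How many of all genes showed opposite directions was not counted, so the 4 are not read as particular to histone genes. The log2 ratio of cycling over non-cycling cells was -0.92 in chondrocyte-like, 1.23 in osteoblast-like and 2.17 in leukocyte-like cells for Hist1h2ac. For Hist1h2bc it was -0.45, 0.44 and 1.10 in the same order. When cells were binned by S gene UMIs, however, Hist1h2bc was lower in the last bin than in the first in both chondrocyte-like and osteoblast-like cells. In osteoblast-like cells the fall was not steady, with 149 CPM at 6 to 10 UMIs, and the last bin held 33 cells. Within the osteoblast-like clusters Hist1h2bc was higher in cycling cells in 4 of 4, from 1.24-fold to 2.87-fold. For Hist1h1c it was -0.085 in chondrocyte-like and 1.20 in leukocyte-like cells, and for Hist4h4 -0.42 and 0.95. The value of Hist1h1c in chondrocyte-like cells is close to 0 and changed sign under 3 alternatives. Within the 6 chondrocyte-like clusters Hist1h1c was higher in cycling cells in 2 and lower in 2, and so was Hist1h2ac. Their direction over all chondrocyte-like cells was therefore not that of every cluster. Hist1h2bc was lower in 3 of the 6 and higher in none, and Hist4h4 was not taken by cluster.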

How the results depend on the processing

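The log2 ratio of the summed histone level kept its direction in every type under every alternative that gave a value. It was 0.42 in chondrocyte-like, 1.54 in osteoblast-like, 1.93 in erythroid-like and 3.13 in leukocyte-like cells. With at most 5% mitochondrial UMIs it was 0.28, 1.38 and 2.75 (without erythroid-like cells). With cycle cuts 1.5 times higher it was 0.47, 1.67 and 2.68, and with cuts 1.5 times lower 0.24, 1.34 and 3.36. Without doublets it was 3.01 in leukocyte-like cells, and with at least 2000 genes per cell 1.64 in osteoblast-like cells. Median-of-ratios size factors gave 0.35, 1.42 and, in erythroid-like cells, 0.82. Thinning to 5000 UMIs gave 1.70 in osteoblast-like and 2.79 in erythroid-like cells, and leaving haemoglobin out of the total gave 1.16 in erythroid-like cells. Chosen after seeing the data, cells with at most 1% haemoglobin UMIs gave 1.38 in osteoblast-like cells. Leaving out Hist1h2bc and Hist1h1c, also added later, gave 1.42, 2.74 and 3.796. Leaving Hist1h2bc out of the H2B sum, added later too, turned its log2 ratio from -0.33 to 1.06 in chondrocyte-like cells, and gave 2.31 and 3.21 in the other 2 types. The same for genes without a stem-loop gave 3.4002, 4.01 and 5.46. The last shifts come from the gene left out, and the cause of the others was not tested. Thinning lowered the genes at least 2-fold higher from 30 to 7 in chondrocyte-like and from 38 to 22 in osteoblast-like cells. It also leaves fewer UMIs to reach the limit of 20, and the part of this in the lower counts was not tested. The other 79 values were within the counting interval, or 1.5 times for counts. No erythroid-like value could be had at resolution 0.6, at most 5% mitochondrial UMIs or at most 1% haemoglobin, where no non-cycling cell was left. Of 46 ratios of named genes, 5 changed sign in some setting, all with a ratio near even (Hist1h1c in chondrocyte-like and osteoblast-like, and Hist1h2be, Hist1h3d and Hist1h4d in chondrocyte-like cells). No paired analysis was possible because all cells belong to 1 library and 1 group. Depth limits the genes under 20 UMIs, and 1 mouse limits every comparison.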
